A study of Mus musculus with 12 samples.

Results

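The Mir181 family of the mouse is annotated as 6 miRNA genes in 3 genomic clusters, and its 6 rows were followed among 32101 rows of a small RNA-seq table, of which 1577 were miRNA rows. The rows were chosen by name, as one annotated family, after levels in the 3 genotype groups of these data had been seen, so every comparison of a member between genotypes below is a description and carries no p-value. Mir181a-1 and Mir181b-1 make up the cluster on chromosome 1, Mir181a-2 and Mir181b-2 the cluster on chromosome 2, and Mir181c and Mir181d the cluster on chromosome 8. Over 12 libraries the 6 rows held 3202 reads, 3114 of them on Mir181c and Mir181d.

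All libraries were labelled as mouse embryonic stem cells (ESCs) of E14 background. There were 6 wild-type (WT) libraries, numbered 1, 2 and 3 with letters A and B each. Another 2 had genotype Dnmt1 -/- (Dnmt1 KO, A and B). The other 4 had genotype Dicer/Dnmt1 -/- (Dicer/Dnmt1 KO, numbered 1 and 2 with the same letters). A number is called a culture below, although the titles do not say what it stands for. DNMT1 maintains CpG methylation through DNA replication, and DICER is the RNase that releases the mature miRNA duplex from its hairpin. Per the methods, the knockouts derive from C57BL/6 ESCs with floxed Dnmt1, whose deletion a tamoxifen-induced Cre brings about. The study describes a constitutive Dicer deletion made by CRISPR/Cas9 in that line as well as conditional Dicer/Dnmt1 double knockouts, for which non-induced cells with both genes floxed served as WT in small RNA-seq. The labels do not say which route these libraries followed, give E14 for every library and state neither the days since induction, the clones used, nor what separates A from B, so that p-values measure only the spread between these libraries, which may be technical. ESCs were grown with or without feeders, and the labels do not say which applied.

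Depth was low, at 8710 to 245184 reads of 20 to 24 nt per library, and 3 libraries held under 30000 reads: WT 2A (16142), Dicer/Dnmt1 KO 1A (24491) and Dicer/Dnmt1 KO 1B (8710). WT culture 2 carries a title without the letters WT, unlike cultures 1 and 3. Reads of Dicer1 (0 to 3 per library) and Dnmt1 (0 to 18) are fragments that could not check the deletions. The 12 miRNAs fixed as ESC markers (led by Mir295, Mir292 and Mir293) summed to between 28680 and 93270 RPM (reads scaled to a library total of 1000000) in the WT libraries. The sums were 55930 and 99650 RPM after deletion of Dnmt1 alone, and 1221 to 3797 RPM where Dicer was also deleted, with none of the 12 at 0 throughout.

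A miRNA gene is transcribed into a primary transcript, from which DROSHA and DGCR8 cut a hairpin that DICER then cuts into a duplex of a 5p and a 3p strand. One strand is loaded into an Argonaute protein and pairs with target mRNAs chiefly through its seed, bases 2 to 8 from its 5′ end. The Mir181 family is conserved across vertebrates and is best known for its roles in lymphocyte development, where miR-181a tunes the sensitivity of T cell receptor signalling.

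The 4 mature 5p strands are printed first because what the rows can measure turns on how alike they are (RefSeq sequences, build GRCm38.p6; seed in capitals):
mmu-miR-181a-5p: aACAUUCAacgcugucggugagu
mmu-miR-181b-5p: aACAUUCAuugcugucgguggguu
mmu-miR-181c-5p: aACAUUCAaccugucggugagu
mmu-miR-181d-5p: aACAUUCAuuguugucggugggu
All 4 share the seed ACAUUCA, and no other of 1679 mature mouse miRNAs in the RefSeq table carries it. Counting positions from 1 at the 5′ end, miR-181d-5p differs from miR-181b-5p over 23 compared bases by C12U alone, and miR-181c-5p is miR-181a-5p without the G at position 11. The same miR-181a-5p is made from the hairpins on chromosomes 1 and 2, and the same miR-181b-5p likewise.

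The 3p strands tell the loci apart, and those of the 4 genes with the most reads are shown for that reason (seed in capitals):
mmu-miR-181a-1-3p: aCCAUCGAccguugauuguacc
mmu-miR-181a-2-3p: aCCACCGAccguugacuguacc
mmu-miR-181c-3p: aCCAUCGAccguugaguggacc
mmu-miR-181d-3p: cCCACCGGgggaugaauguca
The 3p strands of the Mir181a genes differ by U5C, inside the seed, and U16C. miR-181a-1-3p and miR-181c-3p share the seed CCAUCGA and differ by U16G and U19G.

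Searched through the NCBIM37 genome, to which the reads had been mapped, the windows of 20, 22 and 24 nt that begin at miR-181a-5p occurred at 2 places each, as did those of miR-181b-5p. The windows of miR-181c-5p, miR-181d-5p and every 3p strand of the family occurred at 1 place. How the mapping placed reads with 2 equal hits is not given in the sources used here. Other miRNA rows were classed by the genome places of the 24 nt window that begins at each of their matures. Of 75 miRNA rows outside the family with such a window at 2 or more genome places, 5 (6.7%) held 15 reads or more over the 12 libraries. Their median was 0 and the highest 109. Of 357 rows whose windows were all at 1 place, 160 (44.8%) held 15 reads or more, the median was 8 and the highest 100743. A 24 nt window runs past a shorter mature, so a mature at 2 places with different flanks counts as 1 place here. Rows named as copies, such as Mir92-1 and Mir92-2 (84063 and 29694 reads), fell in this class. The 75 rows include windows at up to 4379 places, and the 2 classes may also differ in expression, so the part of mapping was not tested. With windows at 1 place, Mir181c and Mir181d are read by both strands. The 5p windows of the Mir181a and Mir181b rows lie at 2 places, so low values of these rows cannot be taken as low amounts of miR-181a-5p or miR-181b-5p. Whether their few reads were 5p or 3p is not shown, since the table holds no read sequences.

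**Figure D1:**
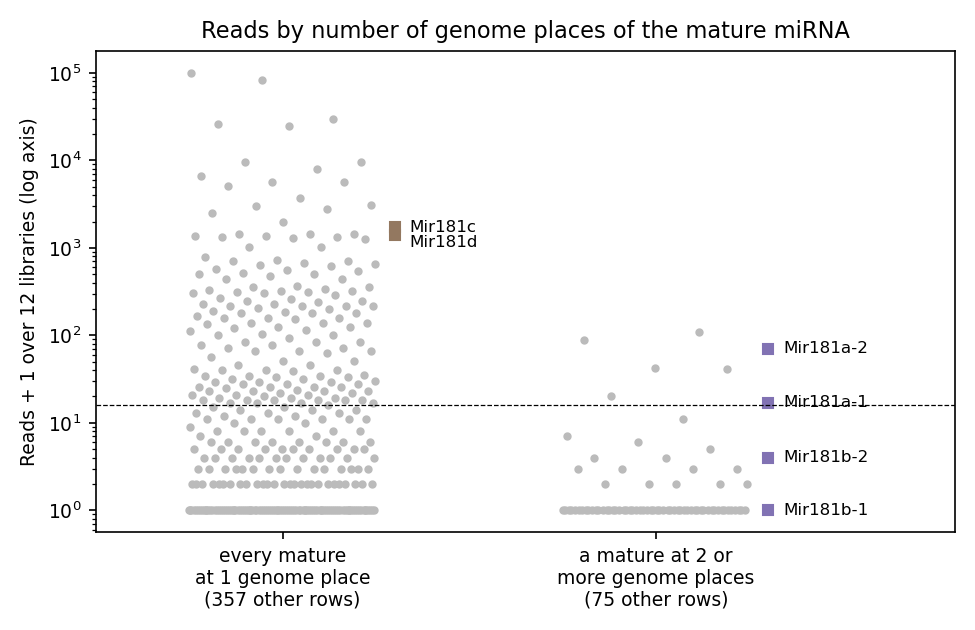
Reads plus 1 over the 12 libraries (log axis) of miRNA rows, split by whether every mature sequence of the row lies at 1 genome place or at least 1 lies at 2 or more. Grey points are 357 and 75 rows outside the family, squares are the 6 Mir181 rows and the dashed line marks 15 reads; Mir181c and Mir181d stand in the first class, and the 4 Mir181a and Mir181b rows in the second, where the highest grey point is 109 reads.

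The cluster on chromosome 8 carried nearly all reads of the family in WT and Dnmt1 KO. Mir181c lies at chr8:86702762-86702867 on the minus strand and Mir181d at chr8:86702615-86702686 on the same strand (NCBIM37), with 75 bases between them and no other annotated gene over either. In WT, Mir181c held 519 and 214 reads in libraries 1A and 1B of culture 1, 6 and 280 in those of culture 2 and 74 and 190 in those of culture 3, which is 2117, 1476, 372, 1997, 1025 and 1320 RPM. In Dnmt1 KO it held 144 and 261 reads (2128 and 2425 RPM), and in Dicer/Dnmt1 KO 6, 0, 10 and 10 reads (245, 0, 158 and 66.4 RPM). Every Dicer/Dnmt1 KO library was thus below every WT library, and both Dnmt1 KO libraries were above the highest WT library, though by little for A. The 0 in Dicer/Dnmt1 KO 1B allows up to 344 RPM at that depth (3 reads), more than was seen in the other libraries of the group. In such bulk libraries, fewer cells with a miRNA and less of it per cell cannot be told apart.

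Mir181d followed Mir181c. It held 276, 158, 8, 251, 101 and 196 reads in the WT libraries in the same order (1126, 1089, 496, 1790, 1400 and 1362 RPM), 134 and 263 in Dnmt1 KO (1980 and 2444 RPM), against 1, 1, 7 and 4 in Dicer/Dnmt1 KO (40.8, 115, 110 and 26.5 RPM). The 3 groups did not overlap for this row either. How many other rows separate in this way was not counted, and 60.9% of miRNA rows in the model below were called lower in Dicer/Dnmt1 KO against WT. WT 2A was the lowest WT library for both genes, from 6 and 8 reads.

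Averaged by group, Mir181c stood at 1384 ± 645 RPM in WT (SD, n = 6), 2276 ± 210 in Dnmt1 KO (n = 2) and 117 ± 107 in Dicer/Dnmt1 KO (n = 4). The corresponding means of Mir181d were 1210 ± 431, 2212 ± 328 and 73.1 ± 46.0 RPM. Without WT 2A the WT means were 1587 ± 461 and 1353 ± 280 RPM. Per kb of annotated row, the order of the genes turned, with 13060 ± 6084 RPM per kb in WT for Mir181c (106 nt) and 16810 ± 5982 for Mir181d (72 nt), so that their order was set by the scale and lay within the spread. Among miRNA rows with reads, Mir181c ranked between 18 and 39 in the WT libraries. Its ranks were 27 and 29 in Dnmt1 KO and, where it had reads, between 31 and 50 once Dicer was deleted. As a percent of all miRNA reads, Mir181c made up 0.369 ± 0.218 in WT, 0.356 ± 0.0437 in Dnmt1 KO and 0.113 ± 0.0877 in Dicer/Dnmt1 KO.

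The balance within the cluster overlapped between the genotypes. Mir181c took 51.7% ± 8.86 (SD, n = 6) of the reads of both genes in WT and 50.8% ± 1.41 (n = 2) in Dnmt1 KO. In Dicer/Dnmt1 KO it took 54.0% ± 37.6 (n = 4), from between 1 and 17 reads per library. Within WT the spread was larger than counting alone gives, since the share was 65.3% in library 1A (95% Wilson interval 61.9 to 68.5, 795 reads) and 42.3% in library 3A (35.2 to 49.7, 175 reads). All intervals and floors given here cover counting error only, since the reads carried no molecular identifiers.

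The other clusters held few reads. Mir181a-2 lies at chr2:38708255-38708330 and Mir181b-2 at chr2:38709350-38709438, both on the plus strand and 1019 bases apart, inside Nr6a1 (chr2:38578890-38783208), an orphan nuclear receptor gene transcribed from the opposite strand. Mir181a-2 held 5, 4, 0, 4, 0 and 4 reads in the WT libraries, which is 20.4, 27.6, 0, 28.5, 0 and 27.8 RPM. It held 9 and 16 reads in Dnmt1 KO (133 and 149 RPM) and 3, 1, 12 and 11 in Dicer/Dnmt1 KO (122, 115, 189 and 73.0 RPM). As counted, every knockout library was above every WT library, and the knockout groups overlapped. How many other rows show this order was not counted. The 0 reads in WT 2A and 3A allow up to 186 and 41.6 RPM at those depths (3 reads). The first is above all knockout values but that of Dicer/Dnmt1 KO 2A, and Dicer/Dnmt1 KO 1B rests on 1 read.

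The group means of Mir181a-2 were 17.4 ± 13.8 RPM in WT (n = 6), 141 ± 11.1 in Dnmt1 KO (n = 2) and 125 ± 48.1 in Dicer/Dnmt1 KO (n = 4). Its rank among miRNA rows with reads was 121 to 137 in WT libraries where it had reads, 110 and 112 in Dnmt1 KO, but 41 to 47 in the Dicer/Dnmt1 KO libraries. The rows ranked numbered 213 to 244 in those WT libraries, 268 and 258 in Dnmt1 KO and only 66 to 178 in Dicer/Dnmt1 KO. In library 1B, with 66 rows, the rank of 41 rests on 1 read. miRNA rows together took 29.0 to 69.5% of WT reads, 62.7 and 65.5% of Dnmt1 KO reads and 6.68 to 12.01% of Dicer/Dnmt1 KO reads. Mir181b-2 had 1 read in each of WT 1B, WT 2A and Dicer/Dnmt1 KO 2B and none elsewhere, too few to compare the genotypes.

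Nr6a1 could not be separated from the miRNA genes inside it, since overlaps were counted without regard to strand. It held 1 to 9 reads in a WT library, of which 0 to 5 lay on the Mir181 rows. For Dnmt1 KO these were 9 of 9 and 16 of 17 reads. In Dicer/Dnmt1 KO the Mir181 rows gave 3 of 4, 1 of 2, 12 of 14 and 12 of 19 of its reads. The remaining 7 reads of Nr6a1 in library 2B, the deepest of that group, were the most outside the miRNA rows in any library. With 41.3 ± 18.6 RPM in WT, 146 ± 17.7 in Dnmt1 KO and 185 ± 49.0 in Dicer/Dnmt1 KO, Nr6a1 entered the model below only through the knockouts and mostly with reads of the Mir181 rows, so its levels are a description and carry no test.

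On chromosome 1, Mir181a-1 (chr1:139863032-139863118) and Mir181b-1 (chr1:139863216-139863295) lie on the plus strand with 97 bases between them. Mir181a-1 held 1 read each in WT 1A and 1B and none in the other WT libraries, 2 and 4 in the Dnmt1 KO libraries, and 0, 0, 6 and 2 in those without Dicer. The levels were 0 to 6.90 RPM in WT, 29.6 and 37.2 RPM for Dnmt1 KO, and 0, 0, 94.6 and 13.3 RPM for Dicer/Dnmt1 KO. As counted, both Dnmt1 KO libraries were above all WT libraries, while the Dicer/Dnmt1 KO libraries overlapped with WT and with Dnmt1 KO. The 0 reads in WT 2A and 3A allow up to 186 and 41.6 RPM (3 reads), above both Dnmt1 KO values, so that order is not settled. Mir181b-1 had 0 reads in all 12 libraries, and 3 reads of 1185256 would be 2.53 RPM.

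Where the Mir181a rows had reads, Mir181a-2 took most of them. Over all libraries Mir181a-1 gave 16 of 85 reads of both rows (18.8%, 95% Wilson interval 11.9 to 28.4). The share was 1 of 6 and 1 of 5 reads in WT 1A and 1B, 2 of 11 and 4 of 20 for Dnmt1 KO A and B, and 6 of 18 and 2 of 13 for Dicer/Dnmt1 KO 2A and 2B, all with intervals more than 30 percentage points wide. The other libraries with any reads of the pair had 1 to 4 of them, all on Mir181a-2.

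**Figure D2:**
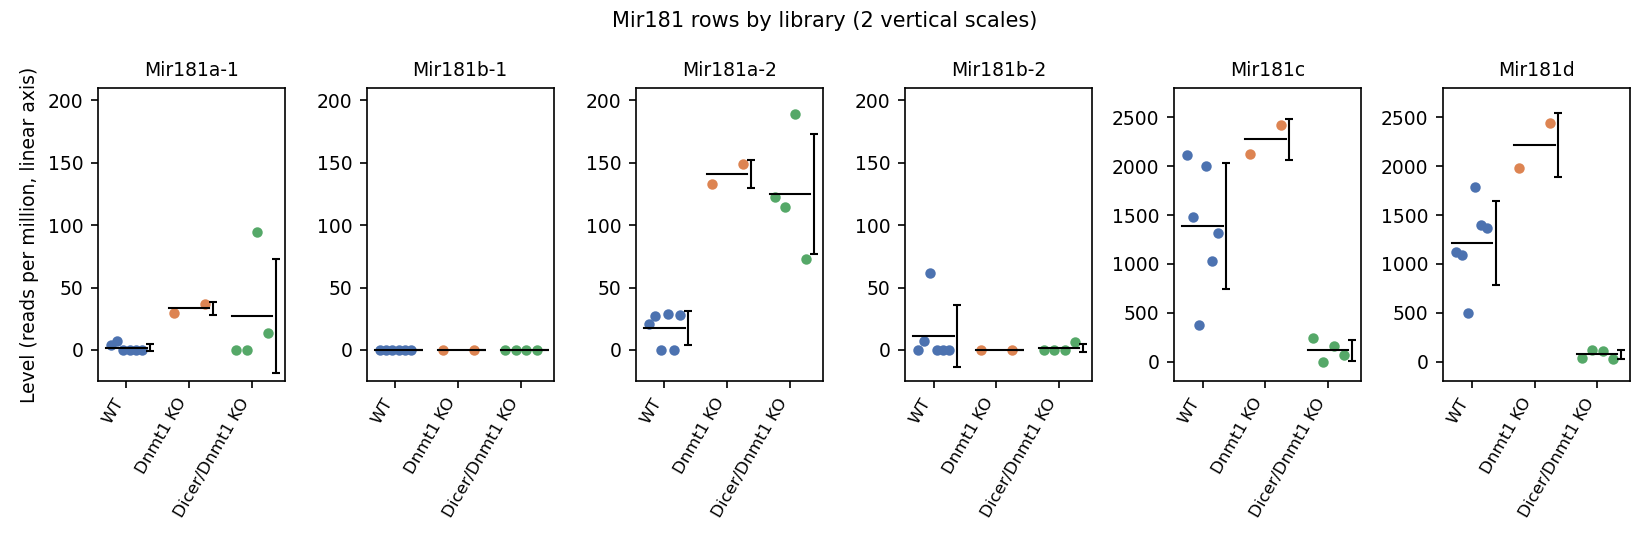
Level in RPM (linear axis; one scale for the Mir181a and Mir181b rows, another for Mir181c and Mir181d) of each Mir181 row in each library, with horizontal lines for group means and bars for the SD (n = 6, 2 and 4). Mir181c and Mir181d were at most 245 RPM in Dicer/Dnmt1 KO against at least 372 RPM in WT, whereas Mir181a-2 was at 73.0 RPM or more in each knockout library and at 28.5 RPM or less in WT.

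Compared as clusters, with combined row lengths of 167, 165 and 178 nt, chromosome 8 took 98.2% ± 2.44 (SD, n = 6) of the family's reads in WT, 96.2% ± 0.0919 in Dnmt1 KO (n = 2) and 54.6% ± 10.3 in Dicer/Dnmt1 KO (n = 4). Single WT libraries lay between 93.3% (WT 2A, 15 reads) and all reads (WT 3A, 175 reads). The Dnmt1 KO libraries were at 96.2% (95% Wilson interval 93.3 to 97.9) and 96.3% (94.4 to 97.6). The libraries of Dicer/Dnmt1 KO were, from 1A to 2B, at 70.0% (39.7 to 89.2), 50.0% (9.45 to 90.5), 48.6% (33.0 to 64.4) and 50.0% (32.6 to 67.4), each from 35 reads or fewer. All of the Dicer/Dnmt1 KO libraries were below all others, and they did not differ among themselves beyond their intervals.

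Chromosome 2 made up most of the remainder, with 1.73% ± 2.46 in WT, 3.03% ± 0.122 in Dnmt1 KO and 39.3% ± 8.92 in Dicer/Dnmt1 KO. Without WT 2A, where 1 read of 15 gave 6.67%, the WT mean was 0.744%. Chromosome 1 made up 0.0649% ± 0.110 in WT, 0.714% ± 0.0306 in Dnmt1 KO and 6.07% ± 8.11 in Dicer/Dnmt1 KO, values that rest on 2, 6 and 8 reads. Its mean in the last group was 2.38% without library 2A and 12.1% without libraries 1A and 1B, and in WT it was 0.0250% without 1B. These shares are formed within a library and need no scaling between libraries, but they inherit the limit that the chromosome 1 and 2 rows share their 5p strands.

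**Figure D3:**
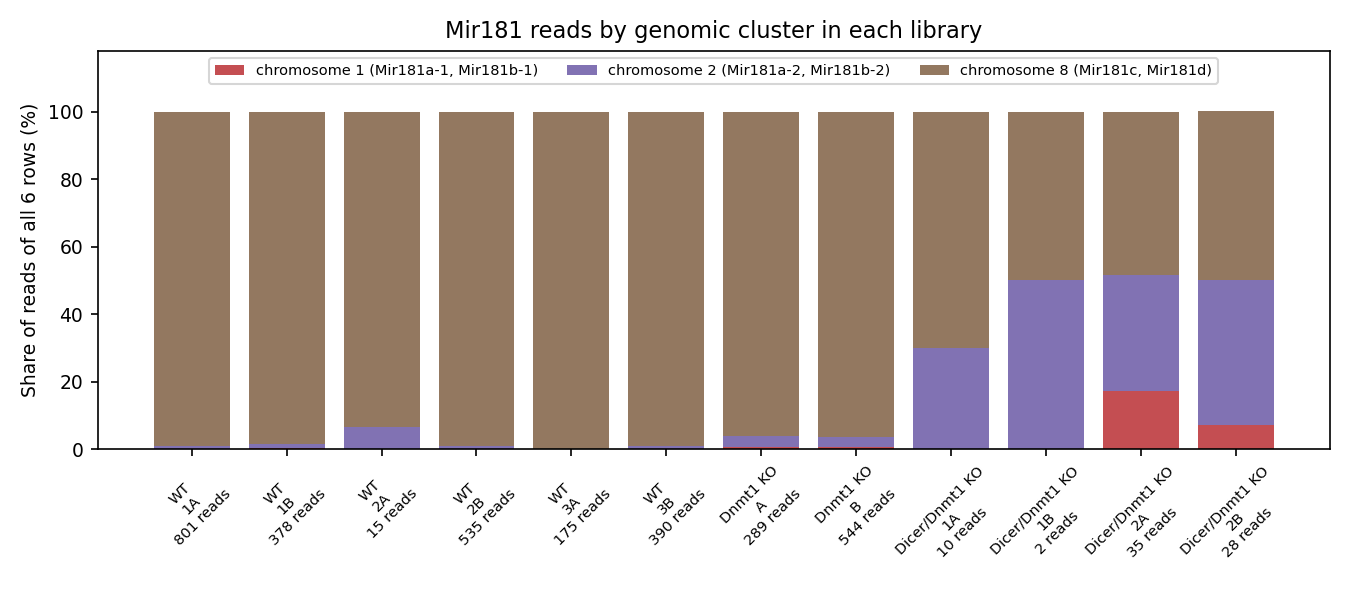
Percent of the reads of all 6 Mir181 rows in each library by genomic cluster, with the number of reads under each bar. Chromosome 8 held 93.3% or more in all WT and Dnmt1 KO libraries and between 48.6 and 70.0% in Dicer/Dnmt1 KO, where bars rest on 2 to 35 reads.

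A model across the table placed these changes beside those of other small RNAs. Of 683 rows tested, 133 were miRNA rows and 3 were members: Mir181a-2, Mir181c and Mir181d. Mir181a-2 entered only through the knockouts, as its WT libraries were at 28.5 RPM or less and the filter asked for 111 RPM in 2 or more libraries, so it had to differ and its calls support nothing. Mir181a-1 met the total of 15 reads, with 16, but not the RPM limit, and Mir181b-1 and Mir181b-2 met neither. Fold changes are on the log2(RPM + 10) scale after scaling of the libraries by trimmed means (TMM).

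In Dicer/Dnmt1 KO against WT, Mir181c was lower by -4.60 (SE 0.67) and Mir181d by -4.73 (SE 0.38) on the log2 scale, and Mir181a-2 was higher by 1.86 (SE 0.56). At the threshold used for all rows (limma, Benjamini-Hochberg, 0.05), 2 members were called lower, where 19.0% of all rows tested were, and 1 was called higher, where 5.12% were. These are the groups in view when the family was chosen, so nothing is read from the counts. The median fold change was -0.09 over all rows tested and -2.75 over the 133 miRNA rows, of which 30 had a lower value than Mir181c, 26 a lower value than Mir181d and 14 a higher value than Mir181a-2. Among the miRNA rows, 81 were called lower and 16 higher. Without the 3 libraries under 30000 reads the values were -3.91 (SE 0.46), -4.48 (SE 0.44) and 2.03 (SE 0.57), with the same 3 calls. The call of Mir181a-2 was lost without Dicer/Dnmt1 KO 2A (1.81, SE 0.63) and, as the row then failed the filter, without Dnmt1 KO B. It was also lost with culture as a random block (1.86, SE 0.71) and with A and B of each title summed (1.46, SE 0.51).

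In Dnmt1 KO against WT, Mir181c and Mir181d stood at 1.06 (SE 0.85) and 1.12 (SE 0.49) and were not called, and Mir181a-2 stood at 3.02 (SE 0.71) and was called higher. Here 6.59% of all rows tested were called higher and 0.293% lower. The median over miRNA rows was 1.40, above both genes of chromosome 8, and 20 miRNA rows exceeded Mir181a-2. Leaving out either Dnmt1 KO library ended the call of Mir181a-2: without A it was 3.18 (SE 1.04) and not called, and without B the row no longer entered the model. Culture as a random block (SE 0.90) and the summing of A and B (2.77, SE 0.65) ended it too.

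In Dicer/Dnmt1 KO against Dnmt1 KO, the values were -5.67 (SE 0.90) for Mir181c, -5.85 (SE 0.52) for Mir181d and -1.16 (SE 0.75) for Mir181a-2, with the first 2 called. Of all rows tested, 21.7% were called lower and 1.17% higher, and of the miRNA rows 99 were called lower and 0 higher. The miRNA median was -4.17, and 17 of 133 miRNA rows had a higher value than Mir181a-2. The 3 comparisons share libraries with one another.

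**Figure D4:**
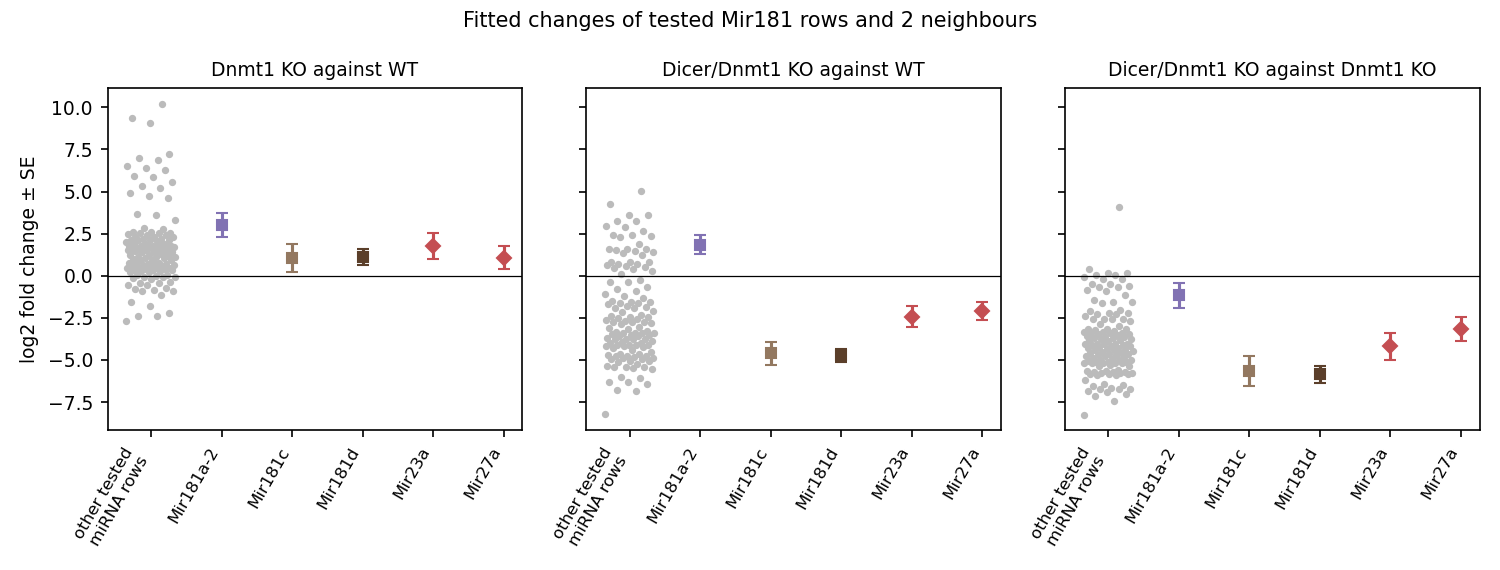
Log2 fold change with its SE (log2(RPM + 10) scale) of Mir181a-2, Mir181c, Mir181d (squares) and of the neighbours Mir23a and Mir27a (diamonds), beside 130 other tested miRNA rows (grey), in each comparison. Mir181a-2 sits in the upper part of the miRNA rows in all 3 panels, and Mir181c and Mir181d in the lower part where Dicer/Dnmt1 KO is compared.

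Within 50 kb of the 3 clusters, 14 other genes were annotated in the table, of which 3 entered the model and 6 had no read. Apart from Nr6a1, those tested were Mir23a and Mir27a, which lie 29550 and 29704 bases from the chromosome 8 cluster on the opposite strand and form a cluster of their own with Mir24-2 (41 reads in all, not tested). Mir23a held 2 to 9 reads in the WT libraries, 12 and 19 in those of Dnmt1 KO and 0 or 1 in those of Dicer/Dnmt1 KO. Mir27a held 4 to 89 reads in WT, 30 and 55 after loss of Dnmt1, and 3 to 5 in the Dicer/Dnmt1 KO libraries. In RPM, Mir27a stood at 255.7 ± 71.46 in WT, 477.2 ± 47.97 in Dnmt1 KO and 136.9 ± 143.8 in Dicer/Dnmt1 KO. With at least 3 reads, Dicer/Dnmt1 KO 1B was at 344 RPM or more, above the WT mean. Mir23a stood at 58.5 ± 36.93, 176.9 ± 0.5245 and 5.6 ± 7.464 RPM in the same order. After TMM scaling, both fell in Dicer/Dnmt1 KO against WT, where 60.9% of miRNA rows were called lower and the miRNA median was -2.75. The log2 fold changes were -2.42 for Mir23a (SE 0.61, limma adjusted p = 0.00854) and -2.10 for Mir27a (SE 0.53, limma adjusted p = 0.00882).

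Against Dnmt1 KO, Mir27a fell by 3.17 (limma adjusted p = 0.00385), and in Dnmt1 KO against WT it stood at 1.07 (limma adjusted p = 0.437). The miRNA medians in these comparisons were -4.17 and 1.40. Mir23a reached the filter on low values mainly in the Dnmt1 KO libraries, so its log2 fold changes of -4.19 (SE 0.82) against Dnmt1 KO and 1.77 (SE 0.77) in Dnmt1 KO against WT are given without a test. Mir27a did not pass against WT without Dicer/Dnmt1 KO 2A (limma adjusted p = 0.119), nor against Dnmt1 KO without either Dnmt1 KO library (limma adjusted p = 0.0513 and 0.0902). With A and B of each title summed, neither fall against WT passed (limma adjusted p = 0.084 for Mir23a and 0.127 for Mir27a), nor did that of Mir27a against Dnmt1 KO (limma adjusted p = 0.0654). Of the alternatives run, the call against WT was lost in 3 of 22 for Mir23a and in 5 of 24 for Mir27a. The call of Mir27a against Dnmt1 KO was lost in 5 of 24. Among these, Mir27a did not pass against WT with library reads alone, without TMM (limma adjusted p = 0.102). With no filter on low values, neither gene passed against WT (limma adjusted p = 0.193 for Mir23a and 0.638 for Mir27a). No row within 50 kb of the chromosome 1 cluster had a read.

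The rows that most resembled the summed level of the family across the 12 libraries, among 130 other tested miRNA rows, were Mir25, Mir200a, Mir429, Mir30e and Mir340, with Pearson's r of 0.98 for Mir25 and 0.97 for the others. The libraries share genotype and depth, so these values describe likeness only. Mir25 had 6970 ± 1869 RPM in WT (n = 6), 14760 ± 1174 in Dnmt1 KO (n = 2) and 304 ± 210 in Dicer/Dnmt1 KO (n = 4). Mir200a and Mir429, members of the miR-200 family that lie on chromosome 4, had 215 ± 53.8 and 114 ± 54.3 RPM in WT, 238 ± 44.3 and 279 ± 144 RPM for Dnmt1 KO, and 5.60 ± 7.46 and 0 RPM once Dicer was deleted.

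Of the miRNA processing genes fixed as a list, 11 rows were present and none entered the model, with at most 9 reads of any of them in a library. The list of mesenchymal and feeder miRNAs (6 rows found, led by Mir21, Mir143 and Mir145) summed to between 4337 and 8152 RPM in WT, 21690 and 25670 RPM in Dnmt1 KO, and between 8361 and 26160 RPM in Dicer/Dnmt1 KO. Of its 2 tested rows, both were called higher in Dnmt1 KO against WT. In that comparison 6.59% of all rows tested and 28 of 133 miRNA rows were called higher. In Dicer/Dnmt1 KO against WT, 1 was called higher, where 5.12% of all rows tested and 16 of 133 miRNA rows were. In Dicer/Dnmt1 KO against Dnmt1 KO, 1 was called lower, where 21.7% of all rows tested and 99 of 133 miRNA rows were. Mir199a-1 was at 0 in all libraries. The haematopoietic list (6 rows, led by Mir142, Mir150 and Mir155) summed to 726 to 867 RPM in WT, 576 and 790 RPM in Dnmt1 KO, and at most 126 RPM in Dicer/Dnmt1 KO, with Mir144 at 0 throughout. Both of its 2 tested rows were called lower in Dicer/Dnmt1 KO against WT, where 19.0% of all rows tested and 60.9% of miRNA rows were. These sums are in RPM without TMM scaling, and the lowest mesenchymal sum in Dicer/Dnmt1 KO, 8361 RPM, lay close to the highest in WT, 8152 RPM. The part of either list in the Mir181 values was not tested.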

How the data were processed

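Small RNA was measured by sequencing in 12 libraries of mouse ESCs. Per the labels, reads were trimmed with Trim Galore 0.3.5 and mapped to NCBIM37 with Bowtie2 2.2.6; the study kept reads of 20 to 24 nt and counted overlaps in SeqMonk. The deposited values are log2 RPM, with 0 reads written as 0.9 read. All values gave whole reads within 0.1 read, so reads and RPM were recovered, and 89 value columns that belong to no sample of the series were not used. Rows with at least 111 RPM (10 reads at the median depth of 89885) in 2 or more libraries and at least 15 reads in all were scaled by TMM and tested on log2(RPM + 10) with limma 3.58.1 (R 4.3.3), with 1 mean per genotype and a mean-variance trend. A count model was not run because the deposited unit is log2. The procedure was tested on simulated data. Mature sequences came from RefSeq and were found in 438 of 529 rows named Mir (82.8%). Windows of 20 to 24 nt that begin at them were searched in NCBIM37 without mismatch. The 6 pairs of libraries A and B had dispersions of 0.0159 to 0.612 and were counted as separate libraries. Members and lists were chosen with earlier results of these data known; the genes named besides the members were those overlapping or within 50 kb, the 5 most alike miRNA rows and up to 3 per list.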

Additional observations from a re-analysis of the deposited data

Results flagged for a closer look

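Of 32 sets of 4 or 6 libraries examined, 6 had a library far from the others; chance flags about 1 in 20. Mir181a-1 was at 94.6 RPM (6 reads) in Dicer/Dnmt1 KO 2A, against 13.3 RPM or less in the rest of its group. Mir181b-2 was at 62.0 RPM in WT 2A and at 6.64 RPM in Dicer/Dnmt1 KO 2B, each from 1 read. In WT 2A, the shallowest WT library with 15 reads of the family, the chromosome 2 cluster took 6.67% of them and the chromosome 8 cluster 93.3%, the farthest of the WT shares on either side. In Dicer/Dnmt1 KO 1A the chromosome 8 cluster took 70.0% of 10 reads, and the other libraries of that group lay between 48.6 and 50.0%.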

How the results depend on the processing

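The fold changes of Mir181c and Mir181d, given as a description, kept their direction under all 24 alternatives in each comparison. Both were called lower in all of them in Dicer/Dnmt1 KO against either group and called in none in Dnmt1 KO against WT. Their ranges in Dicer/Dnmt1 KO against WT were -5.52 to -3.72 and -5.03 to -3.92. The count of members called in Dnmt1 KO against WT, 1, was 0 with no filter on low values, with a pseudocount of 1, with A and B of each title summed and with culture as a random block, and 0 to 1 when single libraries were left out. The member lost was Mir181a-2 (2.77, 4.33, 2.77 and 3.02). The cause was not tested, apart from the row's absence without Dnmt1 KO B. In Dicer/Dnmt1 KO against WT its call was lost in 6 of 23 alternatives, among them the same 4 (1.63, 3.07, 1.46 and 1.86). With the shared numbers 1A to 2B as a replicate block, 2 members were called in place of 3, and Mir181a-2 stood at 1.76. The numbers gave correlations of -0.23, 0.11, -0.17 and -0.29 between libraries of WT and Dicer/Dnmt1 KO, so they did not pair them. With the letters as a replicate block, the counts stayed at 1 and 2 in the other comparisons. With library reads alone the median of all rows tested moved from -0.09 to 0.61 in Dicer/Dnmt1 KO against WT and from -0.16 to 0.75 against Dnmt1 KO, where Nr6a1 turned from -0.66 to 0.29. Group means of cluster shares and of the Mir181a-1 share among Mir181a reads stayed within 1 SD. Leaving out libraries as done here cannot move a mean by more than 1 SD, so for those alternatives the outcome was fixed in advance. The SD is also wide where few reads lie. The Mir181a-1 share moved from 12.2% to 5.13% in Dicer/Dnmt1 KO without 2A and to 22.9% with reads pooled, and from 9.17% to 5.56% in WT without 1B. The chromosome 1 share fell to 2.38% in Dicer/Dnmt1 KO without 2A and to 0.0250% in WT without 1B. Leaving out the libraries under 30000 reads was chosen after seeing the data. Depth limits the Mir181a and Mir181b rows, at 0 to 16 reads per library, and all rows in Dicer/Dnmt1 KO.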
